A study of Homo sapiens with 10 samples.

Results

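The chemokine and chemokine receptor genes described here are 10 genes chosen by name: the ligands CCL3, CCL4, CCL5, CXCL8 and CXCL10 and the receptors CXCR4, CXCR3, CCR1, CCR2 and CCR10. All 10 have a row in the table of 60574 genes, and 8 of them were among the 17834 genes with enough counts to be tested. The cells were U266, a human myeloma line that the labels class as plasma cells, and 10 libraries were sequenced. Every library came from cells that carried dCas9-VPR, a nuclease-dead Cas9 fused to a transcriptional activator, delivered by lentivirus. In 5 libraries the cells also carried a guide RNA to the start site of EFNB2, which encodes the membrane ligand ephrin-B2, and in the other 5 they carried a non-targeting scrambled guide. Cells of both groups were selected and kept in blasticidin (8 µg/mL) and puromycin (4 µg/mL), and the labels name no other treatment. The labels number the libraries of each guide by the letters A to E and do not say whether these were separate cultures or which promoter drove dCas9-VPR, so p-values measure the spread between these libraries.

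Chemokines are small secreted proteins that direct the movement of leukocytes, and their receptors are seven-helix membrane proteins that signal mainly through G proteins of the Gi class. CCL3 and CCL4, also called MIP-1α and MIP-1β, are inflammatory ligands secreted by many myelomas, where CCL3 is known for promoting osteoclast formation. CXCR4, the receptor of CXCL12, is known for holding plasma cells in the bone marrow, and CCR10 is a homing receptor of plasma cells for epithelial surfaces.

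Library totals were 52142380 to 56513548 counts with the control guide and 47268072 to 54761361 with the EFNB2 guide. EFNB2 had 2 to 9 counts in each control library and 52 to 73 in each library of its own guide, a log2 fold change of 3.32 (SE 0.25, adjusted p = 4.68e-08). In both groups library A stood apart: the chi-square of counts per degree of freedom was 10.9 to 23.3 for control pairs with library A and 3.39 to 8.78 for the others, and 8.20 to 10.1 against 1.95 to 2.45 for EFNB2 pairs. Values without both A libraries are therefore given beside several of the results. The plasma cell markers SDC1, TNFRSF17, XBP1, PRDM1, IRF4 and JCHAIN each had a mean above 100 CPM with either guide, where CPM is the count relative to the scaled library size, and CD27 had 21 counts in all control libraries and 8 in all EFNB2 libraries. CD38, MZB1 and SLAMF7 had means of 1.78, 5.57 and 32.1 CPM with the control guide and 8.03, 3.54 and 47.6 with the EFNB2 guide. Of the 10 plasma cell markers 9 were tested, of which 4 rose (CD38 at a log2 fold change of 2.17, SLAMF7 at 0.57, XBP1 at 0.20 and JCHAIN at 0.10), 3 fell (MZB1 at -0.66, SDC1 at -0.51 and TNFRSF17 at -0.38) and 2 did not pass. Among all tested genes 22.8% rose and 22.6% fell. The part of these markers in the results below was not tested. The summed list was 5799.8 to 6598.9 CPM with the control guide and 5514.9 to 5796.7 with the EFNB2 guide.

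With the EFNB2 guide, RNA of the ligands CCL3 and CCL4 fell, CCL4 3.34-fold and CCL3 1.61-fold. Among the receptors CCR2 rose 3.85-fold from a low level, CXCR3 fell 2.00-fold from a low level, and the more abundant CXCR4 and CCR10 fell 1.12-fold and 1.10-fold. CCL5 fell 1.14-fold, CCR1 did not pass the test, and CXCL8 and CXCL10 had almost no counts with either guide. In all, 1 of the 8 tested members rose and 6 fell at an adjusted p of 0.05 in edgeR's quasi-likelihood test. Across all tested genes 45.4% passed in either direction, 22.8% upward and 22.6% downward. The groups did not overlap for 5 of the 8, with CCR2 higher and CCL3, CCL4, CXCR4 and CXCR3 lower, while 30.3% of all tested genes had groups that did not overlap. The median log2 fold change was -0.18 over the 8 members and 0.01 over all tested genes. A change of at least 2-fold was called upward for 2.92% and downward for 1.12% of all tested genes, and for 1 and 2 of the 8 members. CCR2, the member that rose, passed the filter on low counts only through the EFNB2 libraries, so its direction was tied to the filter. In RNA from bulk cells, fewer cells that express a gene and less of its RNA per cell cannot be told apart.

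**Figure D1:**
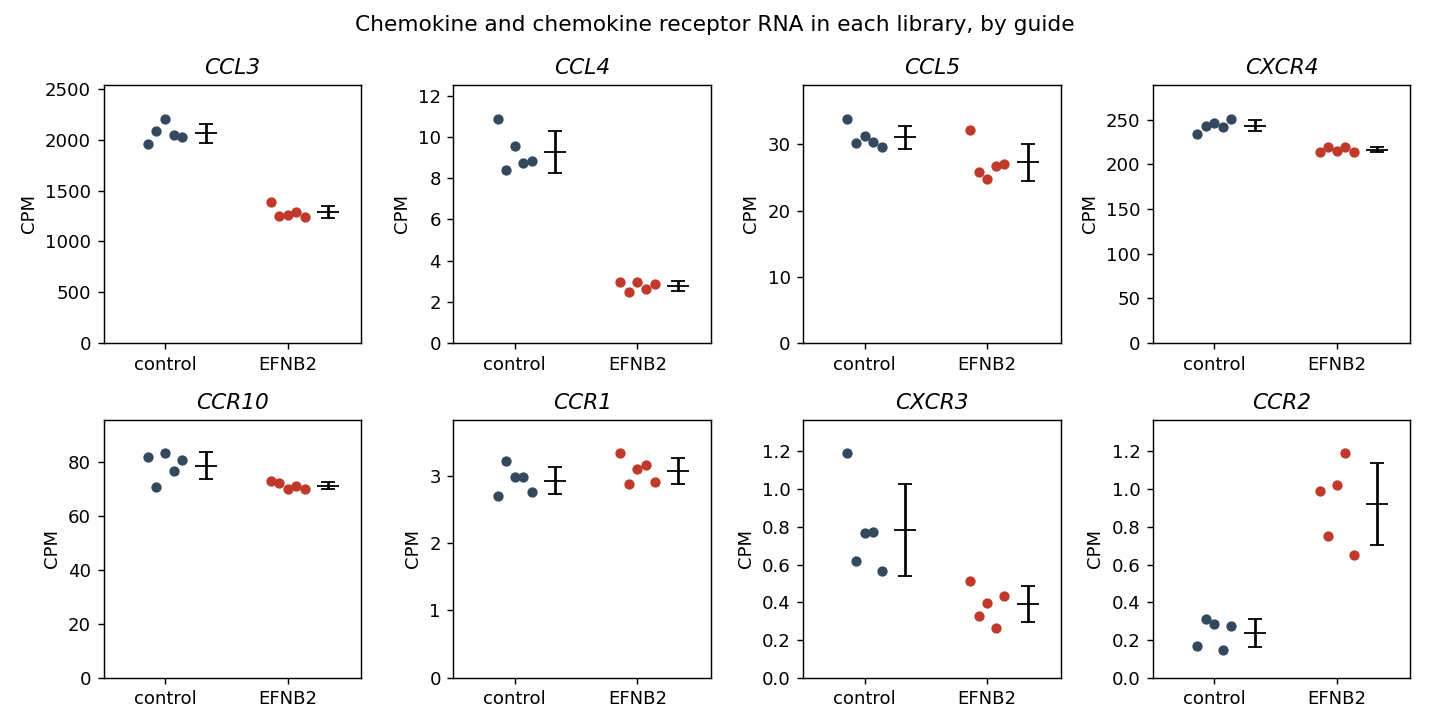
CPM (vertical axes, linear and starting at 0) of the 8 tested members in each library with the control guide and with the EFNB2 guide. Points are libraries and the black bars are the mean ± SD of 5 libraries. CCL3, CCL4, CXCR4 and CXCR3 lie lower and CCR2 higher with the EFNB2 guide with no overlap, while CCL5, CCR10 and CCR1 overlap.

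CCL3 (17:36088256-36090169, minus strand, GRCh38) was the most abundant member. The control libraries A to E held CCL3 at 1959.5, 2084, 2211, 2048.5 and 2032 CPM, and EFNB2 libraries A to E had it at 1389.5, 1254, 1258, 1292 and 1243 CPM. Every EFNB2 library lay below every control library, and library A was the highest of the EFNB2 libraries and the lowest of the controls. The means were 2067 ± 92.3 and 1287 ± 60.0 CPM (SD, n = 5 per guide), and the log2 fold change was -0.68 (SE 0.04, adjusted p = 7.42e-10). CCL3 alone took 0.198 to 0.218% of all counts in the control libraries and 0.125 to 0.138% in the EFNB2 libraries. By mean CPM it ranked 26 among all genes with the control guide and 51 with the EFNB2 guide.

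CCL3 has a close copy on the same chromosome, which the table names CCL3L3 and whose RNA was also abundant. RefSeq places CCL3L3 at 17:36194869-36196758, the locus that GENCODE 29 names CCL3L1, and CCL3L1 has no row in the table used here. The transcripts of both copies were 95.4% identical over 784 aligned bases, with 30 mismatches and a longest identical run of 83 bases, and no stretch of 150 bases, the length of a sequencing read, was shared. How the authors' counting treated reads that fit both copies is not given in the sources used here, so the split between the copies is uncertain. Library by library, from A to E, the control values of CCL3L3 were 129.0, 132.3, 129.6, 123.0 and 123.0 CPM, and those of EFNB2 libraries A to E were 138.0, 121.8, 121.4, 121.6 and 119.3 CPM. EFNB2 library A was the highest of all 10, and the groups overlapped. CCL3L3 did not pass the test (log2 fold change -0.03, SE 0.04, adjusted p = 0.500). Without EFNB2 library A it was lower (-0.07, adjusted p = 0.0454), and without both A libraries likewise (-0.07, adjusted p = 0.0181).

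The change of CCL3 against its copy was tested as the ratio of their counts within each library. CCL3 had 16.2 ± 0.749 counts per CCL3L3 count with the control guide (range 15.2 to 17.1) and 10.4 ± 0.200 with the EFNB2 guide (10.1 to 10.6; SD, n = 5 per guide; exact permutation test, two-sided p = 0.00794). This is the smallest p that 5 against 5 libraries allow, and 5 such ratios were computed, each with that p, which adjustment over the 5 leaves as it is. The sum of both copies fell from 2194 ± 93.6 to 1412 ± 67.4 CPM, 0.643 of the control mean, a total that another split of reads between the copies would leave as it is, although reads dropped for fitting both would be missing from it. The 250 bases before the RefSeq start of each copy are shown because the copies changed unequally. CCL3 is at chr17:36090144-36090393 and CCL3L3 at chr17:36196759-36197008 (GRCh38.p14, both minus strand, 5′ to 3′). Capitals mark bases that differ from, or have no partner in, the other copy.
CCL3: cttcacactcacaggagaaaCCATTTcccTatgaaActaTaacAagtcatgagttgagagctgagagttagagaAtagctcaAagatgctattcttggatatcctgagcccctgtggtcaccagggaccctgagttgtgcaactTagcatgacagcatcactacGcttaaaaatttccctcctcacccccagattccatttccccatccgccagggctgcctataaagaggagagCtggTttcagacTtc
CCL3L3: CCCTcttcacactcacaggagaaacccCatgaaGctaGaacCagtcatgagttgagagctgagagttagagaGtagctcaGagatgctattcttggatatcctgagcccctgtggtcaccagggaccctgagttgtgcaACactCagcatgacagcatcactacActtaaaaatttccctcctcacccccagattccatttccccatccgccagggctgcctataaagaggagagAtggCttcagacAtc
These windows were 91% identical over 256 aligned columns, with 11 mismatched and 12 gapped. Neither window held any of 4 motifs searched on both strands, which were GGNNTTNCC (NF-kB), the interferon-response motif of GAAA and GAAA parted by any 2 bases, TGANTCA (AP-1) and TTCNNNGAA (STAT). Of 35116 windows of the same length before RefSeq starts, 15%, 3.02%, 6.57% and 6.57% held them. These matches and their absence describe letters in a window and were not tested against the RNA values.

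CCL4 (17:36103590-36105621, plus strand), the partner ligand of CCL3 next to it on the chromosome, fell more. For CCL4 the values of control libraries A to E were 10.9, 8.38, 9.57, 8.72 and 8.82 CPM, and those of EFNB2 libraries A to E were 2.98, 2.45, 2.97, 2.62 and 2.85 CPM. The highest EFNB2 library was well under the lowest control library, and control library A was the highest of all. The means were 9.28 ± 1.02 and 2.77 ± 0.228 CPM (SD, n = 5 per guide), with a log2 fold change of -1.74 (SE 0.09, adjusted p = 3.60e-10), from 2503 and 703 counts. The number of CCL3 counts per CCL4 count was 224.9 ± 26.5 with the control guide and 466.2 ± 36.5 with the EFNB2 guide (exact permutation test, two-sided p = 0.00794), with no overlap between groups. CCL4 thus lost a larger share of its RNA than CCL3.

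CCL4 also has a copy, CCL4L2 (17:36210924-36212878, plus strand), whose transcript was 92.6% identical to that of CCL4. CCL4L2 fell from 2.44 ± 0.339 to 1.43 ± 0.225 CPM (SD, n = 5 per guide; log2 fold change -0.77, SE 0.13, adjusted p = 0.000178), with no overlap. CCL4 had 3.85 ± 0.468 counts per CCL4L2 count with the control guide and 1.97 ± 0.211 with the EFNB2 guide (exact permutation test, two-sided p = 0.00794). The fall of CCL4 was therefore larger than that of its copy, as it was for CCL3. The longest run identical in both transcripts was 85 bases, and the division of reads between them is uncertain in the same way. CCL4 and CCL4L2 summed fell from 11.7 ± 1.22 to 4.20 ± 0.432 CPM, 0.358 of the control mean. CCL4L1, a further copy, has no row in the table used here.

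**Figure D2:**
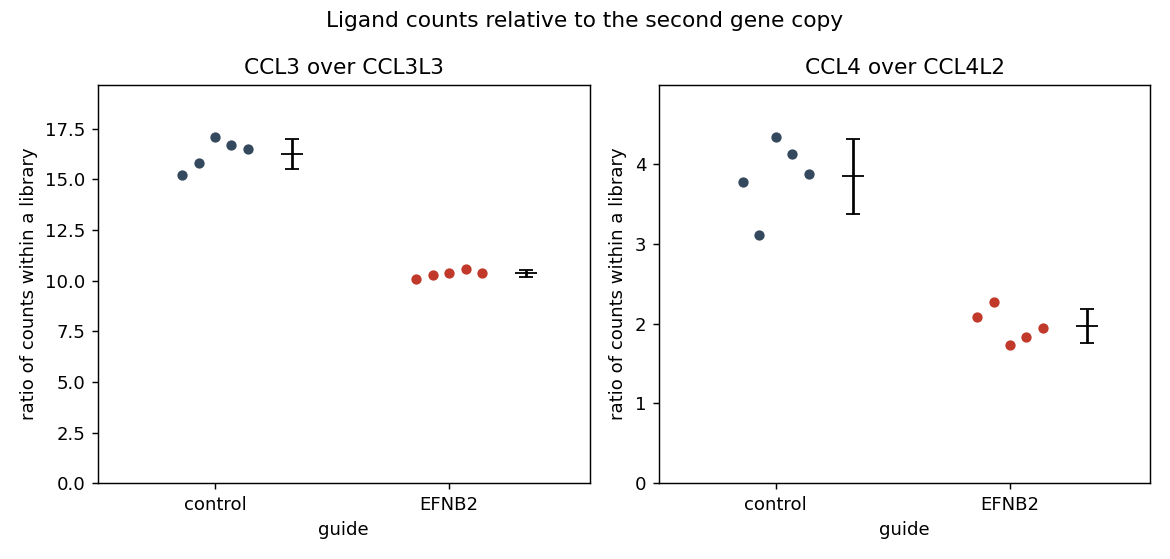
Counts of CCL3 per count of CCL3L3 (left) and of CCL4 per count of CCL4L2 (right) in each library, by guide, on linear axes from 0, with the mean ± SD of 5 libraries in black. All EFNB2 libraries lie below all control libraries in both panels, with means of 10.4 against 16.2 for CCL3 and of 1.97 against 3.85 for CCL4.

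CCL5 (17:35871491-35880793, minus strand), the RANTES ligand of CCR1 and CCR3, lies on the same chromosome arm and moved little. CCL5 stood in control libraries A to E at 33.9, 30.2, 31.3, 30.3 and 29.6 CPM, and in EFNB2 libraries A to E at 32.1, 25.9, 24.7, 26.8 and 27.0 CPM. EFNB2 library A lay inside the control range and the other EFNB2 libraries lay below it, so the groups overlapped. The log2 fold change was -0.18 (SE 0.06, adjusted p = 0.0208), and an exact permutation test of CPM gave a two-sided p of 0.0397. The call rested on single libraries: without EFNB2 library B, C, D or E in turn the adjusted p was 0.0669, 0.0736, 0.0543 and 0.0544, while without EFNB2 library A it was 0.000341 (log2 fold change -0.25) and without both A libraries 1.79e-05 (-0.22).

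The region around these ligands was read from the tested genes within 300 kb of CCL3. Of 11 such neighbours 0 rose and 5 fell, namely CCL4, CCL4L2, CCL5, TAF15 (log2 fold change -0.11, adjusted p = 0.0016) and AC243829.4 (-0.38, adjusted p = 0.0255). CCL4, CCL4L2 and CCL5 are the ligands already described above. Of all tested genes 22.6% fell, and 45.4% passed in either direction. AC243829.4 overlaps CCL3 on the opposite strand and had 8234 counts against 884256 of CCL3 over all libraries. The kit kept the strand, but the strand setting of the authors' counting is not given in the sources used here, so reads of CCL3 and this gene cannot be told apart. The 6 neighbours that did not pass were AC015849.5, LRRC37A9P, RDM1, TBC1D3B, AC243829.1 and AC233699.1.

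CXCL8 and CXCL10 were close to absent. CXCL8 (4:73740506-73743716), the neutrophil attractant IL-8, had 1 count in each of control libraries C and D and 0 in the other 8 libraries. CXCL10 (4:76021117-76023497), an interferon-induced ligand of CXCR3, had 1 count in each of EFNB2 libraries A and B and 0 in the other 8. Both fell below the filter on low counts and were not tested. The limit that a count of 0 allows, 3 counts in a library, was 0.0537 to 0.0627 CPM and covers counting error only. At this depth no difference between the guides was detectable for either gene. Their upstream windows are shown as examples of windows with several matches to the 4 motifs. CXCL8 is at chr4:73740319-73740568 (plus strand) and CXCL10 at chr4:76023498-76023747 (minus strand), 250 bases before the RefSeq start in GRCh38.p14, with the matches in capitals.
CXCL8: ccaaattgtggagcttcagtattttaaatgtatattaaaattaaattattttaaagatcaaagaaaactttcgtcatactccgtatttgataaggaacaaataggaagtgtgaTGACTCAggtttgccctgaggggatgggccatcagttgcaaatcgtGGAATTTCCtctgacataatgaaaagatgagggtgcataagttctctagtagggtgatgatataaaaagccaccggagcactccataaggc
CXCL10: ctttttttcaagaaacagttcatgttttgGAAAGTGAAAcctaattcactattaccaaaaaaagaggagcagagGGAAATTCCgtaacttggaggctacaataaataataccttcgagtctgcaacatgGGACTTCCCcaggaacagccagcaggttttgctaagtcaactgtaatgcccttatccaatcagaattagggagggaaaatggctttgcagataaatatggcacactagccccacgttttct
The CXCL8 window held GGAATTTCC (NF-kB) at 91 to 83 bases before the start and TGACTCA (AP-1) at 137 to 131. The CXCL10 window held GGAAATTCC and GGACTTCCC (both NF-kB), and the interferon-response motif at 221 to 212 bases before the start. Among the expressed members with an entry, the CXCR4 window held 2 NF-kB matches, CXCR3 held 1, CCR2 held 1 and an AP-1 match, CCR1 held 1 STAT match and CCL3 held no match.

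CXCR4 (2:136114349-136118165, minus strand) was the most abundant receptor. Its values in control libraries A to E were 233.8, 243.1, 246.4, 242.2 and 251.3 CPM, and those of EFNB2 libraries A to E were 214.3, 220.0, 215.3, 219.0 and 214.0 CPM. The groups did not overlap, and the EFNB2 libraries lay within a narrower range than the controls. The means were 243.4 ± 6.43 and 216.5 ± 2.79 CPM (SD, n = 5 per guide), a log2 fold change of -0.17 (SE 0.02, adjusted p = 3.10e-05). The change was small beside that of CCL3, and its absolute size was greater than that of 51.7% of tested genes. CXCL12, the ligand of CXCR4, had 0 counts in all 10 libraries.

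CCR10 (17:42678889-42683917, minus strand), a receptor of CCL27 and CCL28, was the next receptor by level. CCR10 values in control libraries A to E were 82.1, 70.9, 83.4, 76.9 and 81.0 CPM, and those of EFNB2 libraries A to E were 73.2, 72.4, 70.1, 71.3 and 70.2 CPM. Control library B lay within the EFNB2 range and the other controls above it. The means were 78.9 ± 5.08 and 71.5 ± 1.36 CPM (SD, n = 5 per guide; log2 fold change -0.14, SE 0.04, adjusted p = 0.00697), and an exact permutation test of CPM gave a two-sided p of 0.0317. CCR10 overlaps CNTNAP1, a gene of axon-glia junctions, on the opposite strand, with 39416 counts for CCR10 and 32758 for CNTNAP1 over all libraries. CNTNAP1 rose from 58.5 to 67.3 CPM (log2 fold change 0.20, adjusted p = 0.029), opposite to CCR10. The part of shared reads in either value was not tested. CCL27 had 0 counts and CCL28 had 3 counts over all libraries.

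CCR1 (3:46201709-46208396, minus strand), a receptor of CCL3 and CCL5, gave no call. With the control guide, libraries A to E had CCR1 at 2.70, 3.22, 2.99, 2.99 and 2.77 CPM, and EFNB2 libraries A to E had it at 3.34, 2.88, 3.11, 3.16 and 2.91 CPM, with wide overlap. The log2 fold change was 0.07 (SE 0.08, adjusted p = 0.520; exact permutation test of CPM, two-sided p = 0.262). Within 2 SE the difference ran from -0.09 to 0.23, which leaves out changes of the size seen for CCL3. CCR1 overlaps CCR3 on the opposite strand, and CCR3 had 332 counts against 1572 of CCR1.

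CCR2 (3:46353734-46360928, plus strand), the receptor of CCL2 on monocytes, rose. The values of CCR2 in control libraries A to E were 0.170, 0.310, 0.287, 0.147 and 0.273 CPM, and those of EFNB2 libraries A to E were 0.992, 0.754, 1.02, 1.19 and 0.652 CPM. The lowest EFNB2 library was above the highest control library. The means were 0.237 ± 0.0737 and 0.922 ± 0.216 CPM (SD, n = 5 per guide; log2 fold change 1.95, SE 0.24, adjusted p = 8.42e-06). These values rest on 64 control and 233 EFNB2 counts, whose ratio per scaled library total was 3.87 with a 95% exact interval of 2.93 to 5.19 for counting error. CCR2 had 8 to 16 counts per control library and 33 to 58 per EFNB2 library. It passed the filter only through the EFNB2 libraries, so its direction was tied to the filter. Without the filter the log2 fold change of CCR2 was 1.94 (adjusted p = 3.43e-09). CCL2, its main ligand, had 0 counts in all libraries. CCR2 had 0.0806 ± 0.023 counts per count of its neighbour CCR1 with the control guide and 0.298 ± 0.0588 with the EFNB2 guide (exact permutation test, two-sided p = 0.00794). Of the 5 tested neighbours within 300 kb of CCR2, LINC02009 rose (log2 fold change 0.86, adjusted p = 0.0357) and CCR1, CCR3, CCRL2 and LTF did not pass. Among all tested genes 22.8% rose.

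Since CCR2 is a receptor of monocytes, markers of that lineage were read beside it. Of 10 monocyte and macrophage markers 1 was tested: CD14 rose from 0.0782 to 0.287 CPM (log2 fold change 1.85, adjusted p = 0.00659). It had 0 to 12 counts per control library and 7 to 18 per EFNB2 library. CD14 passed the filter mainly through the EFNB2 libraries, so its direction was tied to the filter. Among all tested genes 22.8% rose. The CD14 groups overlapped, with control library D at 0.220 CPM and EFNB2 library D at 0.143. The summed list was 0.164 to 0.441 CPM with the control guide and 0.439 to 0.574 with the EFNB2 guide. S100A8 had 0 counts in all libraries. Over the control and then the EFNB2 libraries, CSF1R had 13 and 6 counts, S100A9 had 16 and 10, and FCN1 had 2 and 0. In the same order LYZ had 7 and 8, MARCO 3 and 4, FCGR1A 1 and 3, CD68 1 and 6, and VCAN 2 and 15. The whole list was thus below 1 CPM in every library, and its part in the CCR2 result was not tested.

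CXCR3 (X:71615916-71618517, minus strand), the receptor of CXCL9, CXCL10 and CXCL11, fell from a low level. Control libraries A to E had CXCR3 at 1.19, 0.621, 0.770, 0.771 and 0.565 CPM, and EFNB2 libraries A to E had it at 0.514, 0.329, 0.397, 0.266 and 0.435 CPM. Control library A was the highest, and the groups did not overlap. The means were 0.784 ± 0.245 and 0.388 ± 0.0956 CPM (SD, n = 5 per guide; log2 fold change -1.0, SE 0.24, adjusted p = 0.00284). They rest on 211 control and 99 EFNB2 counts, whose ratio per scaled library total was 0.499 (95% exact interval 0.389 to 0.637, counting error only). Without both A libraries the log2 fold change was -0.93 (adjusted p = 0.00166). Of its 7 tested neighbours within 300 kb, 0 rose and 4 fell: TAF1 (-0.14), LINC00891 (-0.70), BX276092.2 (-0.94) and NHSL2 (-0.80). Of all tested genes 22.6% fell, and 45.4% passed in either direction. CXCL9 had 0 counts in all libraries.

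CCL3, CCL4, CCL5 and CXCR3 are also genes of T and NK cells, so markers of those cells were read beside them. Of 10 such markers 5 were tested. GNLY rose (log2 fold change 3.83, 7 control and 101 EFNB2 counts), CD8A (-0.73) and KLRD1 (-0.46) fell, and CD3E and CD2 did not pass. GNLY had 0 to 2 counts per control library and 15 to 28 per EFNB2 library. It passed the filter only through the EFNB2 libraries, so its direction was tied to the filter. Among all tested genes 22.8% rose and 22.6% fell. The summed list was 5.65 to 7.62 CPM with the control guide and 5.31 to 6.40 with the EFNB2 guide. Among the T cell markers CD3D, CD3G and CD4 had 3, 2 and 4 counts over all 10 libraries, while CD3E, another CD3 chain, stood at 3.21 ± 0.724 CPM with the control guide and 2.85 ± 0.253 with the EFNB2 guide (SD, n = 5 per guide). The part of these cells in the results was not tested.

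Per kilobase of exon (merged exons of GENCODE 29), the order of the member levels with the control guide was CCL3 at 1384, CXCR4 at 109.4, CCR10 at 30.1, CCL5 at 20.5, CCL4 at 4.57, CCR1 at 1.07, CXCR3 at 0.419, CCR2 at 0.0636, CXCL8 at 0.00319 and CXCL10 at 0 CPM per kilobase. No neighbours in this order overlapped between libraries except CXCL8 and CXCL10. With the EFNB2 guide the first 4 kept their places, CCL4 fell to 1.36 and overlapped CCR1 at 1.13, and CCR2 at 0.247 overlapped CXCR3 at 0.208. CCL3 thus stood above the next member, CXCR4, by more than their spread with either guide, at 861.6 against 97.3 CPM per kilobase with the EFNB2 guide.

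The rest of the ligand family was mostly silent. Of 43 other ligand genes 41 have a row, and 19 had 0 counts in all libraries. Of the 6 tested, 2 rose, 2 fell and 2 did not pass (median log2 fold change 0.00). Among all tested genes 22.8% rose and 22.6% fell. CCL20, the ligand of CCR6, stood at 0.227, 0.233, 0.448, 0.349 and 0.401 CPM in control libraries A to E and at 1.49, 1.43, 1.02, 1.21 and 1.30 CPM in EFNB2 libraries A to E. It rose 3.86-fold with no overlap (log2 fold change 1.95, SE 0.19, adjusted p = 9.42e-07). CCL22, a ligand of CCR4 and a known product of B cells and macrophages, rose from 0.300 ± 0.0369 to 0.650 ± 0.235 CPM (log2 fold change 1.12, SE 0.24, adjusted p = 0.00151), also with no overlap. Without both A libraries its log2 fold change was 0.83 (adjusted p = 0.00507), under 2-fold. CXCL16, a membrane-bound ligand of CXCR6, stood at 10.2, 11.6, 12, 12.6 and 12.3 CPM in control libraries and at 7.02, 6.84, 5.50, 6.39 and 5.95 CPM in EFNB2 libraries. It fell 1.85-fold (log2 fold change -0.89, SE 0.07, adjusted p = 1.28e-07), and CCL4L2 was the other ligand that fell. CXCL16 overlaps MED11 on the opposite strand, with 4787 counts for CXCL16 and 3547 for MED11 over all libraries. The part of shared reads in the CXCL16 value was not tested. Of the 5 chosen ligands 0 rose and 3 fell.

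Of 18 other receptor genes 6 were tested, of which 1 rose, 0 fell and 5 did not pass (median log2 fold change -0.18). The shares over all tested genes were 22.8% upward and 22.6% downward. CCR7, the lymph node homing receptor, stood at 0.132, 0.272, 0.251, 0.459 and 0.273 CPM in control libraries A to E and at 0.588, 0.715, 0.439, 0.635 and 0.514 CPM in EFNB2 libraries A to E. It rose 2.07-fold (log2 fold change 1.05, SE 0.26, adjusted p = 0.00371), and the groups overlapped in control library D and EFNB2 library C. With control library A at 7 counts, CCR7 passed the filter only with EFNB2 libraries included, so its direction was tied in part to the filter. Without both A libraries its log2 fold change was 0.87 (adjusted p = 0.00685), under 2-fold. The atypical receptor ACKR3, the second receptor of CXCL12, had 0 counts in all libraries. Those that did not pass were CCR3, CXCR5, XCR1, CX3CR1 and CCRL2.

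**Figure D3:**
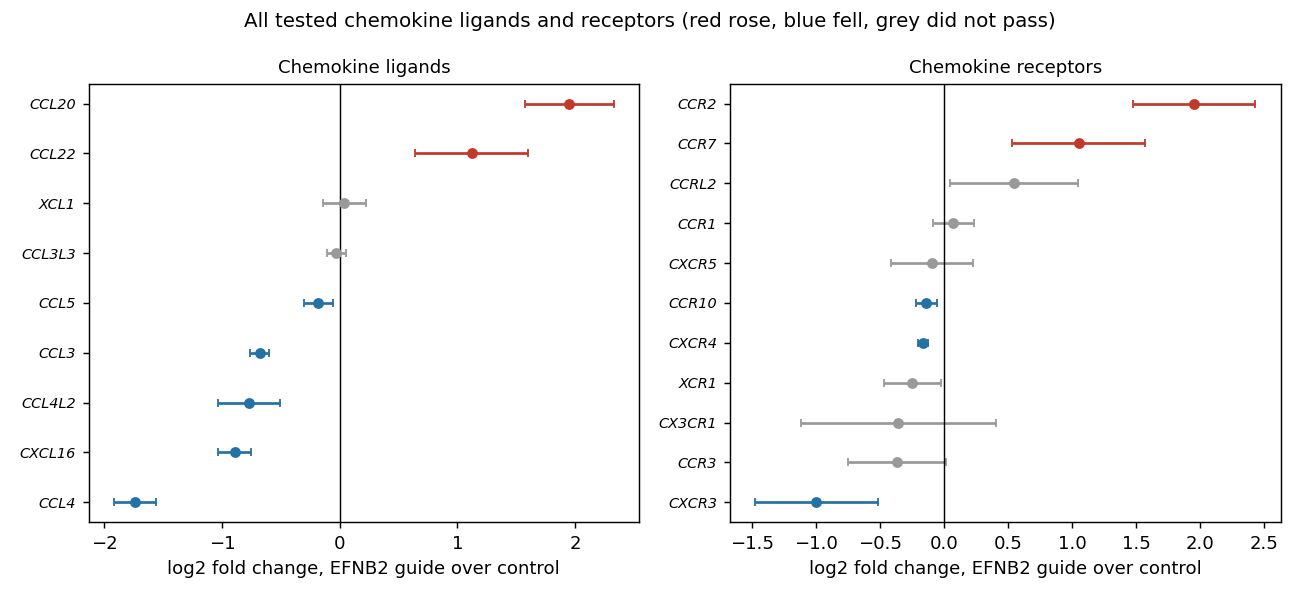
Log2 fold change, EFNB2 guide over control guide, of all 9 tested chemokine ligands (left) and all 11 tested chemokine receptors (right), with bars of ± 2 SE. Red genes rose, blue genes fell and grey genes did not pass at an adjusted p of 0.05. The ligands run from CCL4 at -1.74 to CCL20 at 1.95 and the receptors from CXCR3 at -1.0 to CCR2 at 1.95. CCR2 and CCR7 passed the filter on low counts only with EFNB2 libraries included.

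Genes listed for receptor signalling changed in both directions and mostly by small amounts. Of 27 listed genes 21 were tested, of which 5 rose, 8 fell and 8 did not pass, with a median log2 fold change of -0.05. The list also held the ligands CXCL12, which was not tested, and MIF, which did not pass. It held the surface protein CD74 as well, which was among the 5 that rose (log2 fold change 0.08). Among all tested genes 22.8% rose and 22.6% fell. Among those lower were PIK3CG, the catalytic subunit of the PI3-kinase that Gβγ activates (47.4 to 36.8 CPM, log2 fold change -0.37), and PTK2B, the kinase PYK2 (113.5 to 89.4 CPM, -0.34). VAV1, an exchange factor for Rac (-0.23), and the haematopoietic GTPase RAC2 (-0.17) were lower as well. The largest change of the list was in PLCB2, a phospholipase C of low level (mean log2 CPM -0.08). PLCB2 fell from 1.24 to 0.670 CPM with no overlap (log2 fold change -0.89, adjusted p = 0.000265). Among those higher was PREX1, a Gβγ-dependent exchange factor for Rac (3.44 to 4.92 CPM, log2 fold change 0.51). PLCB3, another phospholipase C (0.29), RAC1 (0.13) and ELMO1 (0.12), the partner of DOCK2, were also higher. The Gαi genes GNAI2 (486.8 to 448.6 CPM, log2 fold change -0.12, adjusted p = 0.0041) and GNAI3 (-0.07, adjusted p = 0.0605), named beside the rule as the proteins that couple the receptors, remained abundant. RAC2 and PIK3CG each had an A library apart from the other 4 of its guide, and without both A libraries their log2 fold changes were -0.24 and -0.50. That of PLCB3 was then 0.39.

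Among genes that switch the receptors off, several RGS genes rose. RGS proteins speed the return of Gα subunits to the inactive state. Of 18 genes listed for desensitisation and receptor modification 16 were tested, of which 6 rose, 6 fell and 4 did not pass (median log2 fold change 0.13). The shares over all tested genes were 22.8% upward and 22.6% downward. RGS1, a brake on CXCR4 and other chemokine receptors in B cells, stood at 18.2, 15.3, 16.8, 15.9 and 17.0 CPM in control libraries A to E and at 42.4, 43.5, 41.3, 43.6 and 41.6 CPM in EFNB2 libraries A to E. It rose 2.55-fold with no overlap (log2 fold change 1.35, SE 0.04, adjusted p = 1.86e-12). RGS13 rose from 0.272 ± 0.0836 to 2.14 ± 0.317 CPM (SD, n = 5 per guide; log2 fold change 2.97, SE 0.19, adjusted p = 7.60e-09), on 73 and 540 counts. With control library C at 8 counts, RGS13 passed the filter only with EFNB2 libraries included, so its direction was tied in part to the filter. RGS2 rose from 4.25 ± 0.152 to 7.75 ± 0.439 CPM (log2 fold change 0.87, SE 0.06, adjusted p = 2.16e-08). These 3 genes lie side by side at 1:192575727-192812283, and the other tested neighbours of RGS1 within 300 kb, AL390957.1 and AL136454.1, did not pass. AL390957.1 overlaps all 3 on the opposite strand by gene ends, with 687 counts against 613 of RGS13. It stood at 1.19 CPM with the control guide and 1.44 with the EFNB2 guide. The part of shared reads in the RGS13 value was not tested.

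The other genes of that list moved less. RGS16 (log2 fold change -0.30) and RGS14 (-0.22) fell, as did the receptor kinase GRK5 (15.4 to 11.3 CPM, -0.45), while the receptor kinases GRK2 (0.14) and GRK6 (0.13) rose. TPST2, an enzyme that adds sulphate to the receptors' outer tyrosines, fell from 33.1 to 25.3 CPM (log2 fold change -0.39). The arrestins ARRB1 and ARRB2 did not pass.

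All 17 listed transcription factors and their regulators, known to act on chemokine genes, were tested. Of these, 11 rose, 1 fell and 5 did not pass (median log2 fold change 0.13), while 22.8% of all tested genes rose and 22.6% fell. REL, the NF-kB subunit c-Rel, stood at 17.8, 18.7, 20.0, 22.2 and 21.1 CPM in control libraries A to E and at 29.2, 33, 33, 31.3 and 32.4 CPM in EFNB2 libraries A to E. It rose with no overlap (log2 fold change 0.67, SE 0.06, adjusted p = 1.24e-07). KLF2, a factor that restrains NF-kB and directs lymphocyte homing, rose from 19.8 ± 0.822 to 31.3 ± 3.91 CPM (log2 fold change 0.66, SE 0.07, adjusted p = 2.70e-06). FOS rose from 0.739 ± 0.187 to 1.55 ± 0.669 CPM (log2 fold change 1.06, SE 0.25, adjusted p = 0.00308), and JUN, its partner in AP-1, fell (-0.21, adjusted p = 0.0109). EFNB2 library D had FOS at 2.68 CPM and the other EFNB2 libraries had it at 1.07 to 1.58. With single libraries left out the log2 fold change of FOS was 0.77 to 1.22 (adjusted p up to 0.0105), at its lowest under 2-fold. NFKBIZ, an atypical IκB protein, rose as well (0.38, adjusted p = 0.00141), while RELA (0.02, adjusted p = 0.517) and NFKB1 (0.01, adjusted p = 0.850), the subunits of the classical dimer, did not pass. In JUN and KLF2 an A library lay apart from the other 4 of its guide, and without both A libraries the log2 fold changes were -0.11 and 0.71.

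**Figure D4:**
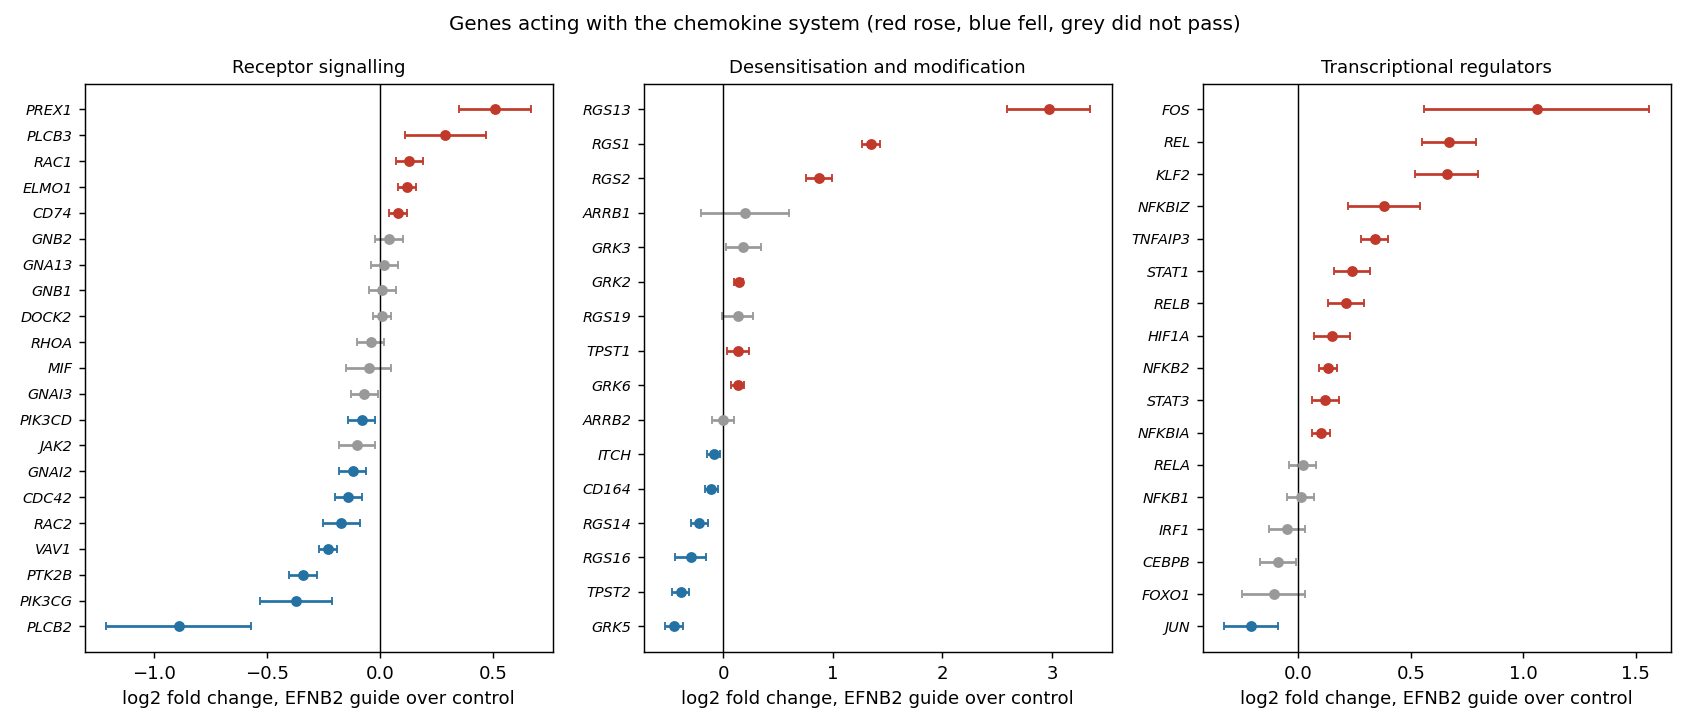
Log2 fold change, EFNB2 guide over control guide, of tested genes of receptor signalling (left), desensitisation and modification (middle) and transcriptional regulation (right), with bars of ± 2 SE and separate horizontal scales. Red genes rose, blue genes fell and grey genes did not pass at an adjusted p of 0.05. RGS13, RGS1 and RGS2 at 2.97, 1.35 and 0.87 lie farthest to the right in the middle panel, and 11 of 17 regulators are red. RGS13 passed the filter on low counts only with EFNB2 libraries included. Of all tested genes 22.8% rose and 22.6% fell.

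For the 6 members whose log2 CPM averaged 1 or more, the genes whose log2 CPM followed them most closely across the 10 libraries, after each guide's mean was subtracted, were named. CCL3 was followed by TRUB2, NAA20 and MRPS18B (Pearson r 0.96 for each, and 0.92, 0.91 and 0.94 over the 8 libraries other than A). CCL4 was followed by GLIPR2 (0.94), NUTM2E (0.91) and TRIM36 (0.90), and CCL5 by FTH1 (0.97), AMPH (0.96) and DPYSL3 (0.95). Over the 8 libraries other than A these were lower, at 0.87, 0.83 and 0.83 for CCL4 and 0.78, 0.92 and 0.83 for CCL5. For the receptors, the genes were SNRPGP15 (0.96), SUN2 (0.93) and COCH (0.92) for CXCR4, BCL2L10, NAPG and ZC3H15 (0.96 each) for CCR1, and ICAM4 (0.98), ZW10 (0.96) and FAM92A (0.95) for CCR10. Over the same 8 libraries these were 0.86 to 0.91 for CXCR4, 0.93 to 0.95 for CCR1 and 0.97 to 0.98 for CCR10. No other chemokine or receptor gene was among these 18. The libraries share depth and handling, the genes are the highest of 17834 compared, and these coefficients describe 10 libraries with no test.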

How the data were processed

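Poly(A) RNA of U266 cells was sequenced from 10 libraries, grouped by the genotype field, as stranded paired reads per the labels' protocols. Partek, DESeq2, STAR 2.27a and the build GRCh38 appear in the submitters' processing notes with no role. Which annotation and strand setting the counting used is not given in the sources used here. Raw counts per gene, as the authors deposited them, gave all main results. The authors also deposited a normalized signal, equal within 0.000497% to the count plus 0.0001 times 1 constant per library (counts above 100), and this table was an alternative. Left out were 3 rows with a number in place of a name, at most 7e-05% of counts.

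Genes passing filterByExpr of edgeR 4.0.16 (R 4.3.3), 17834 of 60574, were scaled by TMM and compared by edgeR's quasi-likelihood test with guide as the single term and p-values adjusted by Benjamini-Hochberg over all of them. The threshold was an adjusted p of 0.05. CPM are counts per scaled library size, with a prior count of 2 on the log2 scale. The biological coefficient of variation was 0.0489. On simulated counts for the 17834 genes, 60%, 64%, 86% and 100% of 50 genes changed 1.25-, 1.5-, 2- and 4-fold were recovered. Of 163 calls 4.91% were false. Only 50 genes per fold were changed there, while 45.4% of tested genes were called in the data. The shares recovered therefore need not hold for the data.

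The members and lists were chosen with earlier results of these data known. The text names, by rule, the members, EFNB2, copies of CCL3 and CCL4, from each list other than markers up to 4 rises and 4 falls with the largest changes among those past the threshold whose log2 CPM averaged 0 or more, and any changed at least 2-fold. For each member whose log2 CPM averaged 1 or more it names the 3 genes most alike. Neighbours, ligands and receptors of members, markers, and PLCB2, GNAI2, GNAI3, RELA, NFKB1, ARRB1 and ARRB2 were named beside the rule after their values were seen. Positions are from GENCODE 29, sequences from RefSeq (GRCh38.p14), which had an entry for 7 of the 10 members.

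Alternatives were DESeq2 1.42.0, limma-voom (limma 3.58.1), RLE scaling, library totals alone, no filter, at least 1 CPM in 5 libraries, the deposited normalized values as log2(value + 1), the library letter as a block, each library left out, and both A libraries left out, the last chosen after seeing the data.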

Additional observations from a re-analysis of the deposited data

Results flagged for a closer look

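In 6 of 74 groups of 5 libraries examined, the highest or lowest library lay apart from the other 4 of its guide by Dixon's criterion at the 95% level, of which chance gives about 1 in 20. All 6 were A libraries. With the EFNB2 guide, library A had 138.0 CPM of CCL3L3 against 119.3 to 121.8 in the other 4, 376.6 CPM of RAC2 against 341.4 to 350.2, and 24.5 CPM of KLF2 against 32.0 to 34.1. With the control guide, library A had 37.2 CPM of PIK3CG against 48.7 to 51.4, 352.5 CPM of RAC2 against 404.6 to 409.7, and 37.2 CPM of JUN against 32.0 to 33.2. In RAC2 the A libraries of the 2 guides lay apart in opposite directions. The 8 tested members had no such library in either guide.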

How the results depend on the processing

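Across the alternatives the number of genes higher with the EFNB2 guide was 3425 to 4992 (4072 as reported) and of genes lower 3337 to 4862 (4026 as reported), and none of the 8 tested members and 29 other genes run under the alternatives changed direction. The 7 called members kept their call in every alternative that gave a value, except CCL5, whose log2 fold change was -0.25 to -0.15 when single libraries were left out, with adjusted p of 0.0669, 0.0736, 0.0543 and 0.0544 (log2 fold changes -0.16, -0.15, -0.17 and -0.17) without EFNB2 library B, C, D or E. CCR1 passed in no alternative (adjusted p 0.338 to 0.941). CCL3L3 passed without EFNB2 library A (-0.07) and without both A libraries (-0.07). CCR2 and CXCR3 gave no value where genes needed 1 CPM or more in 5 libraries. On the log2(value + 1) scale of the deposited normalized values the changes of low genes were smaller, at 0.62 for CCR2 and -0.36 for CXCR3. Without the filter, CXCL8 and CXCL10 gave adjusted p of 0.314 and 0.300 on 2 counts each. Libraries of the same letter did not deviate together (correlations -0.237 to -0.00303), 0 of 10 libraries correlated best with its own letter, and with the letter as a replicate block 3425 genes were higher and 3337 lower. A count of 0 allows up to 0.0537 to 0.0627 CPM in a library, by counting error alone.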

Other observations

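Several chemokine genes below the filter on low counts had unequal counts between guides, given here with no test and chosen after their values were seen. CCL1, a ligand of CCR8 known from activated T cells, had 62 counts over the control libraries and 17 over the EFNB2 libraries. CXCL13, the B cell attractant, and CX3CL1, the membrane-bound fractalkine, each had 0 counts with the control guide and 9 with the EFNB2 guide. CXCL11, an interferon-induced ligand of CXCR3, had 1 and 9 counts, and CCL25, the ligand of CCR9, had 1 and 8. ACKR4, a scavenging receptor of CCL19 and CCL21, had 10 and 1, beside 602 counts of ACAD11, which overlaps it on the opposite strand. XCL1, the lymphotactin ligand of XCR1, was expressed in all libraries at 2.99 ± 0.238 and 3.07 ± 0.284 CPM (SD, n = 5 per guide; log2 fold change 0.04, SE 0.09, adjusted p = 0.766). XCR1 itself had 1.32 ± 0.101 and 1.11 ± 0.0768 CPM, with no overlap between guides, and did not pass the test (log2 fold change -0.25, adjusted p = 0.0839).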
